A study of Mus musculus with 4 samples.

Results

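Cholesterol synthesis and its control by the sterol regulatory element binding proteins (SREBPs) were followed through 8 genes chosen by name: Insig1, Hmgcs1, Sqle, Idi1, Fdft1, Lss, Srebf2 and Dhcr7. Of these, 7 had a named probe among the 15123 genes measured, and Srebf2 is not analysed here. The measurement was the ratio of spheroid to organoid RNA on 2-colour arrays, with 1 value per gene for each of 4 wild-type CD1 mice. All cultures came from small intestine and grew in Matrigel with EGF, Noggin, R-spondin1 and fetal bovine serum. Spheroids are round hollow cysts of epithelium and organoids are budded, crypt-like structures. Both kinds were picked from the culture of the same animal and replated over 3 passages, so each value compares 2 selected cultures and not freshly taken tissue. Of the 4 animals, 2 were fetuses at embryonic day 16 (E16), 1 was a fetus at embryonic day 18 (E18) and 1 a pup on the day of birth (P0). The E18 and P0 pairs have no replicate of their own stage.

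Animal cells build cholesterol from acetyl-CoA by way of mevalonate, squalene and lanosterol. When sterol runs low in the endoplasmic reticulum, the escort protein SCAP carries the SREBP precursors to the Golgi, where site-1 and site-2 proteases free the transcription factor. When sterol is plentiful, INSIG proteins hold SCAP back. SREBP-2, the product of Srebf2, acts mainly on cholesterol genes, and Insig1 is itself one of its targets, whereas SREBP-1c acts mainly on fatty acid synthesis. The small intestine absorbs dietary sterol and also makes much of its own.

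SREBPs bind sterol regulatory elements and act together with the factors NF-Y and Sp1, so the letters of these elements were looked up in the promoters of the members. RefSeq windows of 300 bases, from 250 before to 50 after the start site, were at hand for 6 of the 8 genes in build GRCm38.p6. Sqle and Fdft1 had no entry. The windows of Insig1 (chr5:28071162-28071461), Hmgcs1 (chr13:119690101-119690400), Idi1 (chr13:8885356-8885655) and Lss (chr10:76531355-76531654), all on the plus strand, are printed because each gene has a single window and they span the members with the widest and the narrowest differences between stages. They run 5′ to 3′, and capitals mark CCAAT, the NF-Y box, or TCACNCCAC, a sterol regulatory element, on either strand.
Insig1: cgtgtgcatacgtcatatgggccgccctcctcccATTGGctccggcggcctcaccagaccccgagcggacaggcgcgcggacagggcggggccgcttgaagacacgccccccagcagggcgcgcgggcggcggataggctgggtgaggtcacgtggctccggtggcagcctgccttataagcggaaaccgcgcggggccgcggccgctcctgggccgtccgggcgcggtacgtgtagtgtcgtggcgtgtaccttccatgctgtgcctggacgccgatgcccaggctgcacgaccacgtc
Hmgcs1: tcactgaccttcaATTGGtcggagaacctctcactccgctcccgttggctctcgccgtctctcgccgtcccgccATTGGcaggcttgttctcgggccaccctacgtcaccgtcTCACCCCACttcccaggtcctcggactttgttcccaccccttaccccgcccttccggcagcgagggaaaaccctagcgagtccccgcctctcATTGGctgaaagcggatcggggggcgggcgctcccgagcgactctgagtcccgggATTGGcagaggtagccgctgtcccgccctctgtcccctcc
Idi1: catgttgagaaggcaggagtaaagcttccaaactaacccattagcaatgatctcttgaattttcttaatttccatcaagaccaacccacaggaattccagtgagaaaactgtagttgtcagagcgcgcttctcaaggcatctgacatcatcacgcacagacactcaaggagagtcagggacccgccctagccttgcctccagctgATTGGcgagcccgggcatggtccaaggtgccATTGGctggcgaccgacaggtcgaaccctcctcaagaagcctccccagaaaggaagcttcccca
Lss: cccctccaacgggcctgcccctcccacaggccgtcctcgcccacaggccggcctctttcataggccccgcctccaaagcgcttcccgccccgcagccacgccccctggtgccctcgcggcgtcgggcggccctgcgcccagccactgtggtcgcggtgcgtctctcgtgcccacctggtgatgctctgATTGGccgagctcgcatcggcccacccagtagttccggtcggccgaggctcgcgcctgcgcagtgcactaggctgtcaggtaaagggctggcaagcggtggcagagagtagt

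Hmgcs1, which encodes the synthase that makes HMG-CoA in the cytosol, was the only one of the 6 genes whose window held TCACNCCAC, 137 bases before the start site. That element was present in 1.44% of all 27025 genes with a window, and in 1.24% of all 32851 windows. CCAAT was present in a window of 6 of 6 members, against 41.1% of all 27025 genes with a window. The Hmgcs1 window held 4 of these boxes, the Idi1 window 2, and the Insig1 and Lss windows 1 each. Of the measured synthesis enzymes, 14 had a window, and CCAAT was present for 14 of them. The Sp1 box GGGCGG was present in 6 of 6 members and in 38.2% of all genes. The E-box CACGTG was present in 2 of 6 members, Insig1 and Dhcr7, and in 8.09% of all genes. The shorter letters TCACNCCA, which TCACNCCAC contains, were present in 2 of 6 members, Hmgcs1 and Srebf2, and in 4.97% of all genes. These are matches of letters, not measured binding, and a window without them says nothing about the factor.

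The values were taken as log2 ratios. No label gives the log base, and the folds given here rest on that assumption. A positive value was taken to mean more RNA in spheroids, which is likely because the labels name the spheroid first and give it the first channel. No label states it, and with the opposite sign every direction given here would turn. Between 4.50% and 6.16% of genes had a ratio over 1 in size in a pair, and the median of all genes lay between -0.0035 and 0.003. The 94 negative control probes ranged from -0.36 to 0.20 over the 4 pairs. Precision is limited by there being only 4 pairs. Because ratios were used and no intensities, the presence of epithelial markers in either culture could not be checked. In such bulk RNA, a smaller share of cells that express a gene and less RNA per cell cannot be told apart.

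The medians of the cholesterol genes lay on opposite sides of 0 by stage. In the E16 pairs the median of the 7 members was -0.27 and -0.72, in the E18 pair 0.45 and in the P0 pair 0.40. Below 0 were 4 and 6 members in the E16 pairs, and above 0 were 6 members in each of the E18 and P0 pairs. For 7 of 7 members both later pairs (E18 and P0) lay above both E16 pairs, an order that 25.9% of all genes showed. For Fdft1 it rests on 0.047 in the E18 pair against 0.0315 in the first E16 pair, both inside the negative control range. For Idi1 it rests on 0.22 in the P0 pair against 0.18 in the second E16 pair, where the latter lies inside that range. The members were chosen with this order by stage already known, so it is a description. The median stage difference, E18 and P0 mean minus E16 mean, was 0.91 for the members and 0.002 for all genes. Averaged over the 4 pairs the opposite signs cancelled, with a median of 0.05.

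**Figure D1:**
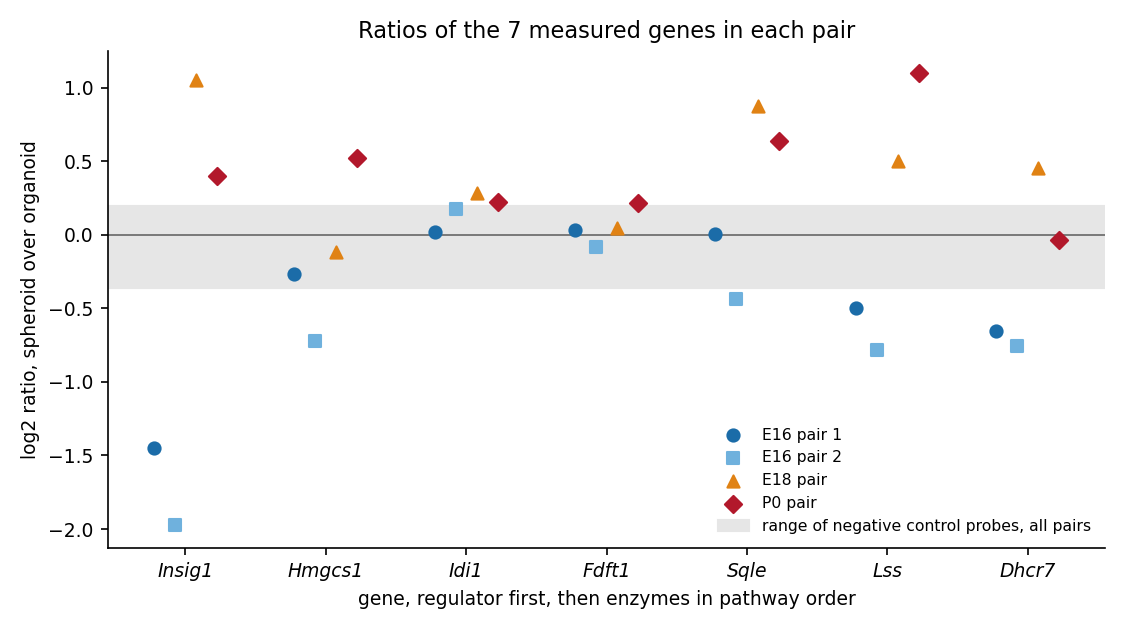
Log2 ratio of spheroid over organoid (y axis) of the 7 measured members (x axis), with 1 point for each of the 4 pairs and a grey band for the range of the negative control probes. Insig1 spans the widest range, from -1.97 in the second E16 pair to 1.06 in the E18 pair, while the points of Idi1 and Fdft1 lie between -0.0795 and 0.29.

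Insig1 (Entrez gene 231070), the anchor that retains SCAP in the endoplasmic reticulum, had the widest swing. Its log2 ratio was -1.45 and -1.97 in the E16 pairs, 1.06 in the E18 pair and 0.40 in the P0 pair. The groups did not overlap, and both E16 values lay far below 0. The later pairs averaged 0.73 ± 0.46 and the E16 pairs -1.71 ± 0.37 (SD, n = 2 each). Read as folds, Insig1 RNA in spheroids was 1.66 times that of organoids in the later pairs and 3.28-fold lower than in organoids at E16. The stage difference of 2.44 (95% interval 1.43 to 3.44) ranked number 29 of 15123 genes from the top. It missed the threshold in limma, with an adjusted p of 0.102 (unadjusted p = 0.00379), as did the E16 mean against 0 (adjusted p = 0.0623). Without the P0 pair the stage difference was 2.77, with an adjusted p of 0.0375 in limma, but that fit takes its spread from the E16 pairs alone.

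Insig1 was read by 3 probes with like values at E16, from -1.48 to -1.43 in the first pair and from -1.99 to -1.97 in the second. In the E18 pair the probes gave 0.60, 1.25 and 1.32, and in the P0 pair 0.25, 0.47 and 0.48. The change of sign was thus present in 3 of 3 probes.

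**Figure D2:**
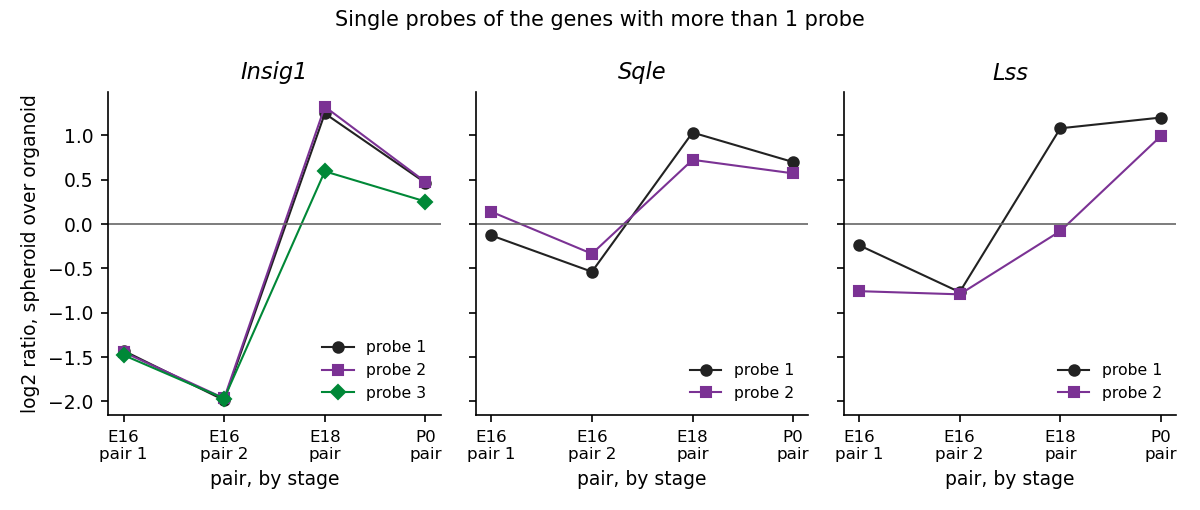
Log2 ratio of each probe (y axis) in the 4 pairs ordered by stage (x axis) for the 3 members with more than 1 probe, where lines join the values of a probe. The Insig1 probes differ by stage more than from each other, while the Lss probes are 1.16 apart in the E18 pair.

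Among the enzymes, the early step of Hmgcs1 (Entrez gene 208715) had ratios of -0.27 and -0.72 in the E16 pairs, -0.11 in the E18 pair and 0.52 in the P0 pair. Only the P0 pair lay above 0, and the E18 value lay inside the range of the negative controls. The stage difference was 0.70 with a 95% interval of -0.24 to 1.63, which includes 0 (limma adjusted p = 0.372). Leaving out the P0 pair gave 0.38, and leaving out the E18 pair gave 1.01.

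Idi1 (Entrez gene 319554), the isomerase that yields dimethylallyl diphosphate, had ratios of 0.016 and 0.18 in the E16 pairs, 0.29 in the E18 pair and 0.22 in the P0 pair. Above 0 in 4 of 4 pairs, it averaged 0.18 ± 0.11 (SD, n = 4), which missed the threshold in limma (adjusted p = 0.180, unadjusted p = 0.0298). Its near copy Idi2 lies on the same chromosome, and cross-reading by the probe was not tested. Fdft1 (Entrez gene 14137), squalene synthase, the first enzyme committed to sterols, had ratios of 0.0315 and -0.0795 in the E16 pairs, 0.047 in the E18 pair and 0.22 in the P0 pair. Idi1 and Fdft1 had the smallest stage differences, both 0.16, and 95% intervals of -0.096 to 0.41 and of -0.12 to 0.44.

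Sqle (Entrez gene 20775), the squalene epoxidase that commits carbon to the sterol ring, had ratios of 0.0055 and -0.44 in the E16 pairs, 0.88 in the E18 pair and 0.64 in the P0 pair. The later values stood clear of the E16 values and of the negative controls. Lss (Entrez gene 16987), the lanosterol synthase that closes the ring, had ratios of -0.50 and -0.78 in the E16 pairs, 0.50 in the E18 pair and 1.10 in the P0 pair. Next to Insig1, Lss was the member with the largest stage difference, 1.44 (95% interval 0.64 to 2.23, limma adjusted p = 0.131), and Sqle followed with 0.97 (0.36 to 1.59, adjusted p = 0.148).
The 2 probes of Lss disagreed in the E18 pair, at 1.08 and -0.079, and with the second of these alone Lss would not be above 0 there. The 2 Sqle probes gave -0.13 and 0.14 in the first E16 pair, so the sign there is not settled, and both were above 0.5 in each later pair.

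Dhcr7 (Entrez gene 13360), the reductase of the last step to cholesterol, had ratios of -0.65 and -0.76 in the E16 pairs, 0.45 in the E18 pair and -0.035 in the P0 pair. Its E16 values were nearly alike, whereas the P0 value lay at 0. The stage difference of 0.91 (95% interval 0.31 to 1.52) had an adjusted p of 0.157 in limma. Without the P0 pair it was 1.16, with an adjusted p of 0.0317 and the spread again from the E16 pairs alone.

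The tests across all genes called 0 of the 7 members. limma called 0 members in the mean of 4 pairs, where 4.36% of all genes were called, 0 at E16 (3.63%), 0 at E18 and P0 (3.87%) and 0 in the stage difference (0%). At an unadjusted p under 0.05, 4 of 7 members had a positive stage difference (Insig1, Lss, Sqle and Dhcr7), against 9.48% of all genes. Likewise 3 were below 0 at E16 (Insig1, Lss and Dhcr7), against 12.2%, and 4 above 0 later (Insig1, Lss, Sqle and Idi1), against 12.3%. An exact two-sided permutation test of 2 against 2 pairs cannot go below p = 0.333. Below 0 in both E16 pairs and above 0 in both later pairs were 2 of 7 members, Insig1 and Lss, against 8.44% of all genes.

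Without the members, 11 other synthesis enzymes were measured. Of these, 9 were below 0 in both E16 pairs and above 0 in both later pairs, against 8.44% of all genes, and 10 had both later pairs above both E16 pairs, against 25.9%. Their median stage difference was 1.14. limma called 0 of the 11 in the stage difference. At an unadjusted p under 0.05, 10 were positive, against 9.48% of all genes. These enzymes too were listed with the stage pattern known. Of all 17 synthesis enzymes measured of 21 listed, among them 6 members, 10 were below 0 in both E16 pairs and above 0 in both later pairs, and 16 had both later pairs above both E16 pairs. A stage difference above 0.5 was found for 14 of the 17, against 9.14% of all genes, and of at least 1 for 9 of the 17, against 3.15%. Of the 7 members, 5 were above 0.5 and 2 (Insig1 and Lss) above 1. The median over these enzymes was 0.67 in the later pairs and -0.39 at E16, and the median of their stage differences was 1.05. In the E18 and P0 pairs limma called 4 of 17 higher in spheroids, against 2.1% of all genes called higher, and 0 lower, against 1.77%. These were Ebp, Pmvk, Nsdhl and Msmo1. At E16 limma called 0 of 17. At an unadjusted p under 0.05, 6 were below 0 there, against 12.2% of all genes, and 1 above, against 13.4%. In the stage difference limma again called 0 (13 of 17 positive at an unadjusted p under 0.05, against 9.48% of all genes).

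**Figure D3:**
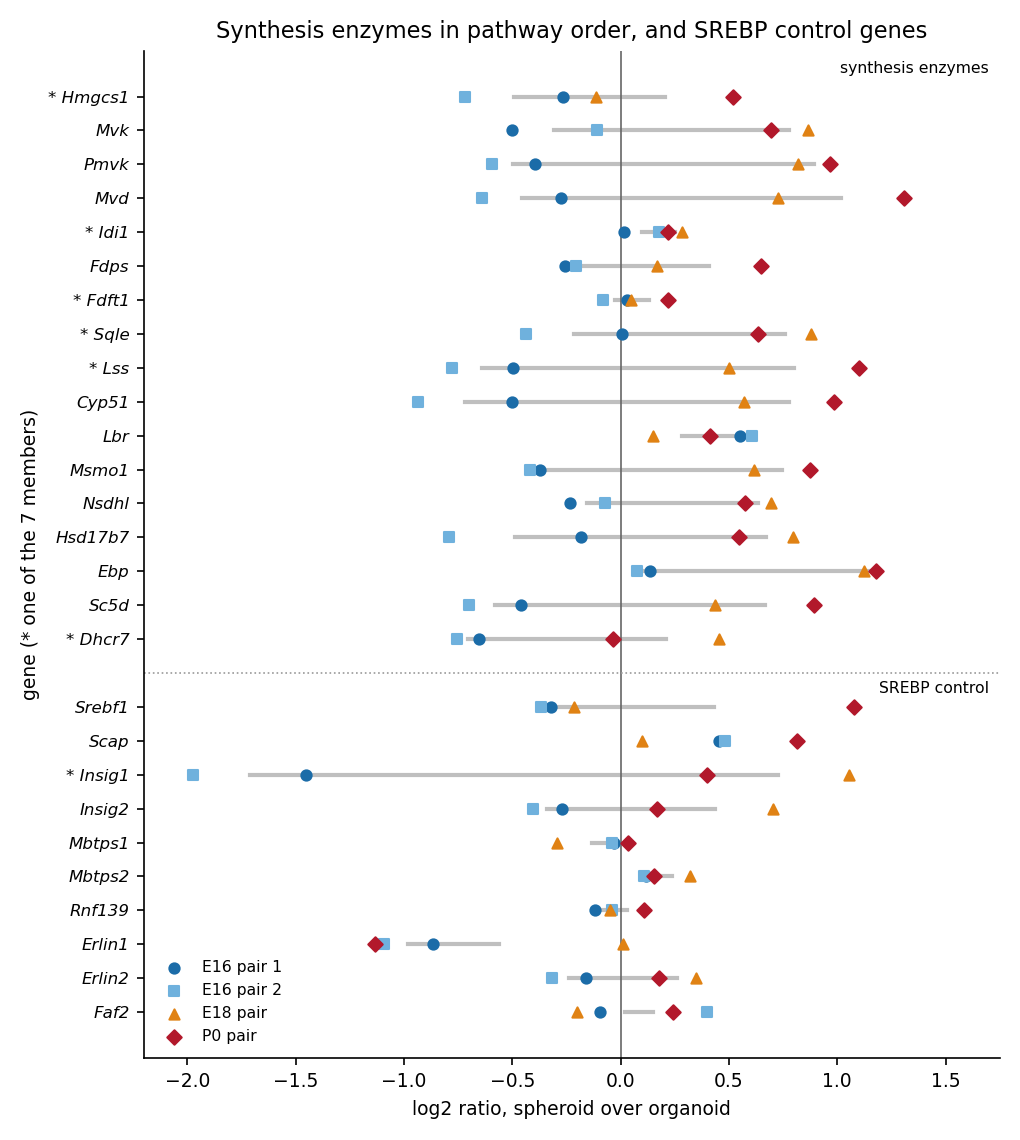
Log2 ratio of spheroid over organoid (x axis) of 17 synthesis enzymes in pathway order and of 10 SREBP control genes (y axis, stars for members), with 1 point per pair and a grey bar joining the means of the later pairs and of the E16 pairs. Except for Lbr, whose 2 probes disagree, the orange and red points of each enzyme lie to the right of both blue ones.

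Ebp, the sterol isomerase that shifts the ring double bond, was the enzyme with the smallest adjusted p in the later pairs. It had ratios of 0.14 and 0.076 in the E16 pairs, 1.12 in the E18 pair and 1.18 in the P0 pair, so it was 2.22 times as high in spheroids in the later pairs (limma adjusted p = 0.0282). Pmvk, the phosphomevalonate kinase, was higher in spheroids in the later pairs, at 0.89 ± 0.11 (limma adjusted p = 0.0397), and -0.49 ± 0.14 at E16 (SD, n = 2 each). Msmo1, the sterol methyl oxidase, was higher too, at 0.75 ± 0.18 in the later pairs (limma adjusted p = 0.0486) and -0.39 ± 0.034 at E16 (SD, n = 2 each). Nsdhl, the decarboxylating sterol dehydrogenase, completed the group at 0.64 ± 0.086 in the later pairs (limma adjusted p = 0.0462) and -0.15 ± 0.11 at E16 (SD, n = 2 each). Its 3 probes disagreed. Of these, 2 were below 0 in both E16 pairs and at 0.99 or above in both later pairs, while the remaining probe ran the other way, with E16 values of 0.20 and 0.98, an E18 value of -0.073 and a P0 value of -0.45. With that probe alone Nsdhl was not called. Without the first or the second E16 pair limma called 0 of the 17 in the later pairs, and 0 of all genes. Without the E18 pair the median of the 17 in the remaining P0 pair was 0.65. Without the P0 pair it was 0.57 in the E18 pair.

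The other early enzymes stood alike. Mvk, the mevalonate kinase, averaged 0.78 in the later pairs and -0.31 at E16. For Mvd, the diphosphomevalonate decarboxylase, the means were 1.02 in the later pairs and -0.46 at E16. Fdps, the farnesyl diphosphate synthase, averaged 0.41 in the later pairs and -0.23 at E16, and its 2 probes gave -0.18 and 0.52 in the E18 pair. Among the late enzymes, the lanosterol demethylase Cyp51 averaged 0.78 in the later pairs and -0.72 at E16, and had the largest stage difference of the 17, at 1.49 (95% interval 0.77 to 2.22). The ketosteroid reductase Hsd17b7 averaged 0.67 in the later pairs and -0.49 at E16, and the desaturase Sc5d 0.66 in the later pairs and -0.58 at E16. Lbr, the lamin B receptor with sterol reductase activity, had the only negative stage difference of the 17, at 0.28 in the later pairs and 0.58 at E16, and this rests on 1 of its 2 probes. That probe gave 0.51 and 0.54 in the E16 pairs, -0.52 in the E18 pair and -0.0045 in the P0 pair. The other gave 0.59 and 0.67 in the E16 pairs, 0.82 in the E18 pair and 0.83 in the P0 pair, so its later values lay above its E16 values. For these 7 enzymes limma's adjusted p in the stage difference lay between 0.115 (Mvk and Cyp51) and 0.324 (Lbr).

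**Figure D4:**
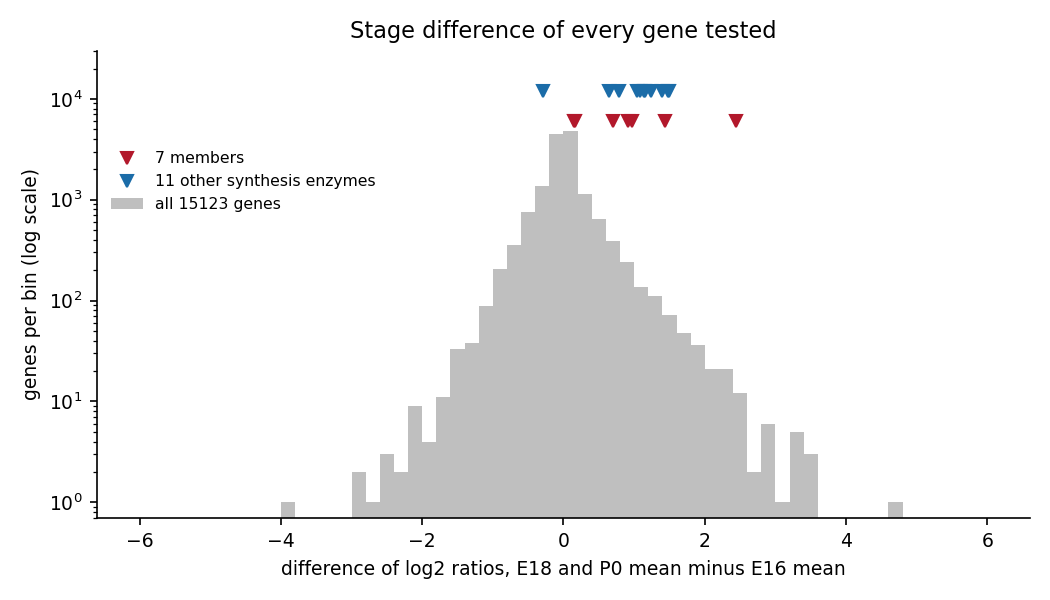
Number of genes (y axis, log scale) by stage difference of the log2 ratio, E18 and P0 mean minus E16 mean (x axis), for all 15123 genes, with triangles for the 7 members and the 11 other synthesis enzymes. Every member lies to the right of 0, from 0.16 to 2.44, and of the other enzymes only Lbr, at -0.30 as the average of 2 probes that differ in direction, lies to the left.

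Among the genes that control SREBP the stages differed less evenly. Of 10 measured of 12 listed, 3 had the sign change (Insig1, Insig2 and Erlin2), against 8.44% of all genes. Both later pairs lay above both E16 pairs for 5, against 25.9%. The median stage difference was 0.27, and limma called 0 in each test. At an unadjusted p under 0.05, 3 had a positive stage difference, against 9.48% of all genes. Insig2, the second SCAP anchor, had ratios of -0.27 and -0.41 in the E16 pairs, 0.70 in the E18 pair and 0.17 in the P0 pair. Of its 4 probes, 1 stayed between -0.012 and 0.030 in all pairs. Its stage difference of 0.77 (95% interval 0.10 to 1.44) was smaller than that of Insig1, and the 2 were not tested against each other. Scap, the sterol-sensing escort, was above 0 in 4 of 4 pairs, between 0.10 and 0.81, with a stage difference of -0.012.
The site-1 protease gene Mbtps1 lay between -0.30 and 0.034 and the site-2 protease gene Mbtps2 between 0.11 and 0.32. Srebf1, which encodes the SREBP-1 forms, lay between -0.37 and -0.21 in the E16 and E18 pairs and at 1.08 in the P0 pair. Erlin1 and Erlin2 encode partner proteins of sterol-regulated degradation in the endoplasmic reticulum. Erlin1 was below 0 in 3 of 4 pairs, at -0.87 and -1.09 at E16, 0.010 at E18 and -1.13 at P0, and Erlin2 averaged 0.26 in the later pairs and -0.24 at E16. The ubiquitin ligase gene Rnf139 lay between -0.12 and 0.11 and the degradation factor gene Faf2 between -0.20 and 0.40.

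Other SREBP-2 targets for sterol uptake and traffic (7 of 10 measured) had a median stage difference of 0.18. Among them Stard4, a carrier of cholesterol, averaged 0.018 in the later pairs and -0.46 at E16. Lpin1, a phosphatidate phosphatase, averaged 0.59 in the later pairs and -0.43 at E16, with 1 of its 3 probes between -0.0585 and 0.051 throughout. Tmem97, a regulator of cholesterol traffic, was lower in spheroids in the mean of 4 pairs, at -0.48 ± 0.082 (SD, n = 4, limma adjusted p = 0.0229), and was the 1 gene of this list called in that test, against 1.34% of all genes called lower and 3.02% called higher. At E16 it averaged -0.54 (adjusted p = 0.0421) and later -0.42 (adjusted p = 0.0493), so it did not change sign. Tmem41b, a lipid scramblase of the endoplasmic reticulum, averaged -0.14 later and 0.075 at E16.

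Fatty acid synthesis genes of the SREBP-1 branch (16 of 17 measured) had a median of 0.31 in the later pairs and -0.27 at E16. The sign change was seen in 7 of 16, against 8.44% of all genes. Scd1, the main desaturase, had ratios of -1.60 and -2.75 in the E16 pairs, 0.91 in the E18 pair and 1.45 in the P0 pair, a stage difference of 3.35 (95% interval 1.84 to 4.87, limma adjusted p = 0.110). Me1, the cytosolic malic enzyme, was higher in spheroids in the later pairs, at 2.27 (limma adjusted p = 0.0386), and averaged 0.13 at E16. Acss2, which makes acetyl-CoA from acetate, was lower in spheroids at E16, at -1.07 (adjusted p = 0.0436), and averaged 0.18 later. Elovl5, a fatty acid elongase, ran the other way, at -0.19 later and 0.29 at E16. Of this list limma called 1 gene lower at E16, against 1.8% of all genes, and 1 higher later, against 2.1%. It called 0 in the stage difference and 0 in the mean of 4 pairs. At an unadjusted p under 0.05 the stage difference was positive for 7 and negative for 1. Of all 15123 genes, 1433 were positive and 1450 negative at that level.

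Genes of the sterol sensor LXR and of efflux (8 of 10 measured) had a median of -0.11 in the later pairs and -0.67 at E16. limma called 2 of 8 lower at E16, against 1.8% of all genes, and 0 in each other test. At an unadjusted p under 0.05, 3 had a positive stage difference, against 9.48% of all genes. The called genes were Nr1h3, the LXR alpha receptor, which was at -1.59 at E16 (adjusted p = 0.0382) and averaged -0.51 later, and Lpcat3, a phospholipid acyltransferase, at -1.26 at E16 (adjusted p = 0.0421) and 0.69 later. Abcg8, a subunit of the transporter that returns sterol to the gut lumen, averaged -0.55 later and -1.31 at E16, and the efflux pump Abca1 -0.068 later and 0.056 at E16. Branch enzymes that use mevalonate products outside sterols (8 of 12 measured) had a median stage difference of -0.072. The sign change, which 2 of the 7 members had, was seen in 0 of these 8, against 8.44% of all genes. For a list of 8 genes, 0 is close to that share. Rabggtb, a subunit of the Rab prenyltransferase, was higher in spheroids at E16, at 0.39 (limma adjusted p = 0.0442), where 1.83% of all genes were called higher, and averaged 0.22 later. The farnesyltransferase gene Fntb, the prenyltransferase gene Pggt1b and the dolichol enzyme gene Dhdds had stage differences of -0.24, -0.14 and -0.14, and 0 of them passed.

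Several marker lists moved with stage too, and their part in the cholesterol result was not tested. Markers of absorptive enterocytes (18 of 24 measured) had medians of -2.14 and -2.50 in the E16 pairs, 0.41 in the E18 pair and -0.90 in the P0 pair. Their members ran from -3.28 to -0.12 and from -3.47 to -0.12 in the E16 pairs, from -2.14 to 1.45 in the E18 pair and from -3.98 to 0.15 in the P0 pair. The enterocyte list had a median stage difference of 1.62, against 0.91 for the members, and 17 of 18 markers had one above 0. For 14 of 18 both later pairs lay above both E16 pairs, against 25.9% of all genes. In the P0 pair alone, 2 of 18 enterocyte markers were above 0, while 16 of 17 synthesis enzymes were. limma called 4 of the 18 lower at E16, against 1.8% of all genes, and 0 in the stage difference (10 positive at an unadjusted p under 0.05, against 9.48%). Esterification and lipoprotein genes (7 of 10 measured), a list that shares Mttp, Apob, Apoa1 and Apoa4 with the enterocyte markers, had a median stage difference of 1.94. Apoa1 and Apoa4, both lipoprotein genes, had stage differences of 2.83 and 2.87, the lysosomal lipase gene Lipa 1.62 and the ester hydrolase gene Nceh1 -0.73. limma called 0 of this list in any test. At an unadjusted p under 0.05 the stage difference was positive for 3 and negative for 1. Of all 15123 genes, 1433 were positive and 1450 negative at that level.

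Cell cycle genes (22 of 24 measured) ran the other way, with medians of 0.39 and 0.50 in the E16 pairs and -0.25 in both the E18 and P0 pairs. For 21 of 22 both later pairs lay below both E16 pairs, an order shown by 24.8% of all genes, and 13 of 22 were above 0 in both E16 pairs and below 0 in both later pairs, against 8.33%. Crypt stem cell markers (9 of 12 measured) had a median stage difference of -0.93, with ratios from -2.78 to 0.72 and from -1.92 to 1.19 in the E16 pairs, from -4.15 to -0.053 at E18 and from -2.93 to 0.42 at P0. General epithelial genes (9 of 9 measured) had a median stage difference of 0.21. Markers of mesenchyme (12 of 12), endothelium (8 of 8), leukocytes (9 of 12) and nerve (5 of 8) had median stage differences of 0.011, 0.042, 0.052 and 0.023. In the mean of 4 pairs limma called 2 of 9 leukocyte genes higher and 1 lower. It called 1 of 9 epithelial genes higher and 1 lower, 1 of 22 cell cycle genes higher and 2 of 9 crypt stem cell markers lower. For mesenchyme, endothelium and nerve it called 0. Of all genes 3.02% were called higher and 1.34% lower.

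**Figure D5:**
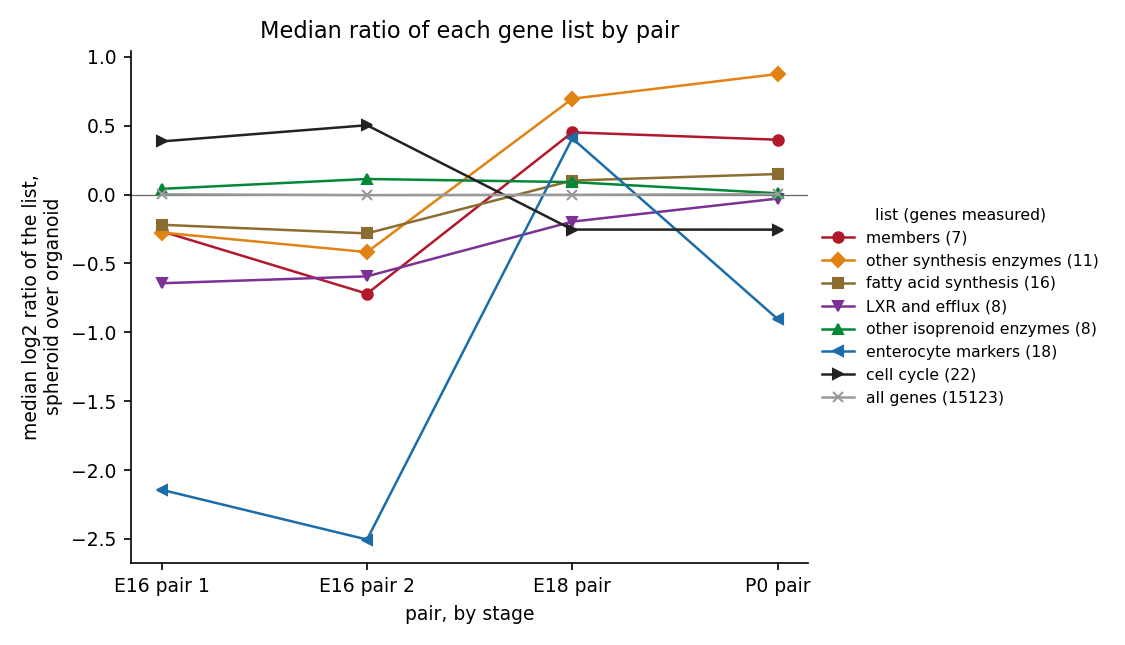
Median log2 ratio of spheroid over organoid (y axis) of each gene list in the 4 pairs ordered by stage (x axis), with lines joining the medians of a list. The members, the other synthesis enzymes and the enterocyte markers all have higher medians in both later pairs than in both E16 pairs. The members and the other synthesis enzymes stay above 0 in the P0 pair, where the enterocyte markers are at -0.90.

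Outside all lists, the genes with the profile closest to the members' median were Gch1, Lpin3, Ctsa, Apeh and Elf1, out of 14710 genes searched over the 4 pairs. Gch1, which starts tetrahydrobiopterin synthesis, differed from that profile by a root mean square of 0.073 in log2, and the lipin phosphatase gene Lpin3 by 0.087. The lysosomal protease gene Ctsa, the peptidase gene Apeh and the Ets factor gene Elf1 followed at 0.13 each. All 5 were below 0 in both E16 pairs and above 0 in both later pairs, like the profile they were picked to match. Their signs and stage differences thus follow from the choice and are no separate result. limma's adjusted p of their stage differences lay between 0.0923 (Apeh) and 0.134 (Ctsa).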

How the data were processed

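The table deposited by the authors gives log2 ratios, 1 per probe and animal, from 2-colour arrays of 70-base probes hybridised with swapped dyes, per the labels. The log base was assumed to be 2 from the size of the values, which reach 7.51, but that size does not settle it. Background correction, normalization, filters and how the dye orientations were combined were not described in the sources used. Of 38083 probes, 22941 name 1 gene in the platform's annotation table, whose symbols may be dated, 0 name several and 15142 are unnamed here. All 22941 matched RefSeq gene IDs of GRCm38.p6. After 3005 control, transgene and viral probes were set aside, 22305 probes were averaged to 15123 genes.

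limma 3.58.1 in R 4.3.3 (lmFit, eBayes, two-sided, Benjamini-Hochberg over all genes, threshold 0.05) tested the mean of 4 pairs against 0. A fit with 2 means, E18 with P0 and E16, gave each mean against 0 and their difference, with 2 residual degrees of freedom. Pairs come from separate animals, which the test takes as independent. Gene lists were described by counts and medians, without a list test. The members and lists were chosen with earlier results of these data known. The text names all members, the synthesis and SREBP control genes, up to 4 genes of each other metabolic list by moderated t of the stage difference, and the 5 genes nearest to the members' median profile. Motifs were searched on both strands. Alternatives were column scaling, column centring, array weights, a robust prior, only the first probe of a gene, control-prefix probes kept and each pair left out.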

Additional observations from a re-analysis of the deposited data

Results flagged for a closer look

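Of the 27 members, synthesis enzymes and SREBP control genes, 1 had a pair that stood apart from the other 3. For Srebf1 the P0 pair, at 1.08, was far above the others, which lay between -0.37 and -0.21. A gap of this size arises by chance in about 1 of 20 groups.

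Opposite signs at E18 and P0 and at E16, with every pair of a stage group on the same side of 0, were seen in 13 of the 27 genes. All 13 were below 0 at E16 and above 0 later, a pattern of 8.44% of all genes. The reverse pattern was looked for too and was shown by 8.33% of all genes. These 27 genes were listed with the stage pattern known. The stage difference was 2.44 for Insig1 and 1.44 for Lss among the members. Among the other enzymes it was 1.09 for Mvk, 1.39 for Pmvk, 1.47 for Mvd, 0.64 for Fdps, 1.49 for Cyp51, 1.14 for Msmo1, 0.79 for Nsdhl, 1.16 for Hsd17b7 and 1.24 for Sc5d. Among the control genes it was 0.77 for Insig2 and 0.50 for Erlin2. The difference was tested in limma for each gene, and 0 of the 13 passed after adjustment over all genes, with Pmvk lowest at an adjusted p of 0.0915.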

How the results depend on the processing

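The stage difference was above 0 for all 7 members under all 10 alternatives run, but this sign is no support. Both later pairs lay above both E16 pairs for each member, so leaving out a pair could not reverse it. A robust prior, array weights and kept control-prefix probes left these estimates unchanged. The members were also chosen with the order by stage known. For Insig1 it lay between 2.11 and 2.77, for Lss between 1.14 and 1.74, for Sqle between 0.75 and 1.199, for Dhcr7 between 0.67 and 1.16, for Hmgcs1 between 0.38 and 1.01, for Idi1 between 0.074 and 0.24 and for Fdft1 between 0.071 and 0.24. With pairs left out, the number of all genes called ran from 0 to 740 in the mean of 4 pairs (660 with all pairs, 145 without P0), from 0 to 3319 at E16 (549), from 0 to 2061 at E18 and P0 (585, or 1521 without P0) and from 0 to 1544 in the stage difference (0, or 443 without E18). A 2-group fit with 3 pairs takes its spread from 1 stage group, so the high counts rest on the likeness of the E16 pairs. Of the 7 members, from 0 to 3 were called at E16, from 0 to 1 later and from 0 to 2 in the stage difference. Of the 17 enzymes, from 0 to 1 were called in the mean of 4 pairs, from 0 to 6 at E16, from 0 to 8 later and from 0 to 5 in the stage difference. The medians of the 17 ran from -0.057 to 0.35 in the mean of 4 pairs (0.27 without the first E16 pair and 0.029 without E18), from -0.44 to -0.27 at E16, from 0.57 to 0.67 later and from 0.87 to 1.08 in the stage difference. The median of the 7 in the mean of 4 pairs ran from -0.26 to 0.099.

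Means near 0 changed sign with a pair left out. In the mean of 4 pairs Insig1 ran from -1.01 to 0.0013, Hmgcs1 from -0.37 to 0.047, Fdft1 from -0.00033 to 0.099 and Lss from -0.26 to 0.37 (-0.060 without E18). At E16 Sqle ran from -0.44 to 0.0055 and Fdft1 from -0.0795 to 0.0315. In the later pairs Hmgcs1 ran from -0.11 to 0.52 and Dhcr7 from -0.035 to 0.45.

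Array weights called 1417 genes in the mean of 4 pairs, 2503 at E16 and 28 at E18 and P0. With them 2 of 7 members were called at E16, and of the 17 enzymes 1 was called in the mean of 4 pairs, 4 at E16 and 1 later. They put the mean of 4 pairs at -0.25 for Lss, also the median of the 7, and at -0.071 for the median of the 17. With the first probe per gene Lss averaged -0.16 over the 4 pairs. Called were 513 genes in the mean of 4 pairs and 269 at E16, with 1 of the 17 in each. With that probe Sqle joined Insig1 in the sign change and Lss left it. A robust prior gave 263 genes at E16, and later 2 of 17 enzymes among 452 genes called. Scaled columns gave 1 of 17 at E16, among 625 genes called. Asking for values beyond the negative control range in each pair left 292 of 1277 genes with the sign change. The cause of these shifts was not tested. Each value is already a ratio within 1 animal, so a test of the mean ratio against 0 compares the 2 cultures animal by animal. The stage difference compares separate animals.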
